A study of Mus musculus with 12 samples.

Results

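The interaction of Lin28a loss and Lin28b loss was computed for each gene over all 12 mouse pluripotent stem cell arrays of the study, 3 in each of 4 groups. It is the log2 signal of double loss minus Lin28a loss minus Lin28b loss plus wild type, so that it is 0 where the effects of the single losses add up to that of the double loss. A value above 0 (above additive) means a double-loss level higher than that sum, and a value below 0 (below additive) a lower one. Of 30854 genes in the deposited table, 10372 were above background (detection p under 0.01) on every array of some group. After 452 further entries of the same symbol were left out, 9920 genes were tested.

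The groups are wild type, Lin28a loss of function, Lin28b loss of function, and loss of both, called double loss. Each genotype carries 1 line name in the sample titles (wt2, AK01, BK06 and DK05), so line and genotype cannot be told apart, and no p-value here measures the spread between lines. Nothing says that the 3 replicates of a group were separate cultures, and if they were not, the p-values measure technical spread alone. The tissue label reads embryonic stem cells, whereas the design text speaks of iPS cells for the controls, that is, of somatic cells reprogrammed to pluripotency. All were grown with serum and Lif, a cytokine that sustains mouse pluripotent cells. By their positions, the 6 arrays with Lin28b intact share a BeadChip (chip 1 here) and the 6 arrays with Lin28b lost share another (chip 2). A chip effect that is additive on the log2 scale therefore cancels in the interaction, and cannot be told apart from Lin28b loss in any comparison across chips.

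Lin28a and Lin28b are paralogous RNA-binding proteins with a cold-shock domain and zinc knuckles. Both block the maturation of let-7 microRNAs, which in turn lower the output of growth and developmental genes, and both also bind messenger RNAs directly. In mouse pluripotent cells they are known for roles in reprogramming, in metabolism and in the passage from the naive to the primed state. The arrays measured messenger RNAs and not mature microRNAs. The let-7 sequences are shown because the list of reported targets below rests on their shared seed, given in capitals (bases 2 to 8), which is the part that pairs with a target. Of 23 mature let-7 family entries in RefSeq (build GRCm38.p6), 11 carry this seed, in 9 distinct sequences, and 4 of them read 5′ to 3′ as follows.
mmu-let-7a-5p: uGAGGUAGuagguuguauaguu
mmu-let-7d-5p: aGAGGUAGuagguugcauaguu
mmu-let-7g-5p: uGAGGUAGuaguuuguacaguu
mmu-miR-98-5p: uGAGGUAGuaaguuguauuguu
The zinc knuckles of Lin28 bind a GGAG stretch in the terminal loop region of let-7 precursors. Those letters occur in 9 of 12 let-7 family hairpins, and are in capitals in this one.
Mirlet7g hairpin, chr9:106178840-106178927, plus strand: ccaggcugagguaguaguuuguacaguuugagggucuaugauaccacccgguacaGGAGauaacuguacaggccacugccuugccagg

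Mean raw signal ranged from 325.4 to 596.7 over the arrays, and between 9377 and 10773 genes were above background on each. The brightest arrays of wild type (replicate 1), Lin28a loss (replicate 3) and double loss (replicate 1) deviated from their groups together, with correlations of 0.46 to 0.69 across genes. The pluripotency factor Pou5f1 had group means of 12.56 to 12.85 on the normalized log2 scale and Nanog of 11.88 to 12.21, and neither had a called interaction. Lin28a itself, the first check of the labels, read 8.07, 7.97 and 7.86 in wild type, 5.69, 5.71 and 5.57 in Lin28a loss, 6.84, 7.06 and 7.19 in Lin28b loss, and 5.29, 5.55 and 5.60 in double loss. It was lowest in both groups without Lin28a, with no overlap with the others, and it was also lower in Lin28b loss than in wild type. Its interaction was 0.76 ± 0.16 (log2, SE, n = 3 arrays a group; adjusted p = 0.0026, limma). Both groups without Lin28a lay near the lowest signal above background among genes inferred to have 1 probe. That floor was 5.32 to 5.49 on the Lin28a-loss arrays and 5.42 to 5.78 on the double-loss arrays. Genes with more probes can be above background under it, as Lin28a was on all 3 double-loss arrays. Lin28b loss stood 0.94 under wild type, and double loss 0.18 under Lin28a loss, where a further fall may be hard to read. The size of this interaction may be limited by that. Neither of the 2 Lin28b entries was above background on any array, so the arrays do not check the Lin28b label.

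Departure from additivity was widespread. The interaction was called in 3748 of 9920 tested genes, or 37.8% (limma, Benjamini-Hochberg adjusted p under 0.05), with 1733 above additive (17.5%) and 2015 below (20.3%). These were 918 and 1296 under median scaling and 2755 and 2858 with array weights. The called interactions had a median size of 0.78 on the log2 scale, against a median standard error of 0.17 over all tested genes. At least 2-fold interactions numbered 1129 (11.4%), of which 457 were above and 672 below additive, and at least 4-fold ones 153 (1.54%). In 605 of the called genes at least 1 group had no array above background, and 2721 of the called genes were above background on all 12 arrays.

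Seen from Lin28a, the interaction is the difference between its effect with Lin28b intact (Lin28a loss minus wild type, within chip 1) and its effect with Lin28b lost (double loss minus Lin28b loss, within chip 2). These effects share no array. Lin28a loss changed 3644 genes with Lin28b intact (36.7%, 1817 up and 1827 down) and 3632 with Lin28b lost (36.6%, 1676 up and 1956 down), by the same fit and threshold. There were 1655 genes called in both, which is 45.4% of the former and 45.6% of the latter. Of these, 859 moved the same way and 796, or 48.1%, moved in opposite directions, 432 of them up with Lin28b intact and down with it lost, and 364 the reverse. Across all tested genes the effects had a Pearson r of 0.020 and a Spearman rho of 0.004, as a description over genes, which are not independent. The interaction itself was called in all 796 genes that moved oppositely and in 234 of the 859 that moved the same way. As the interaction is the difference of these effects, the call in all 796 largely follows from the arithmetic.

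**Figure D1:**
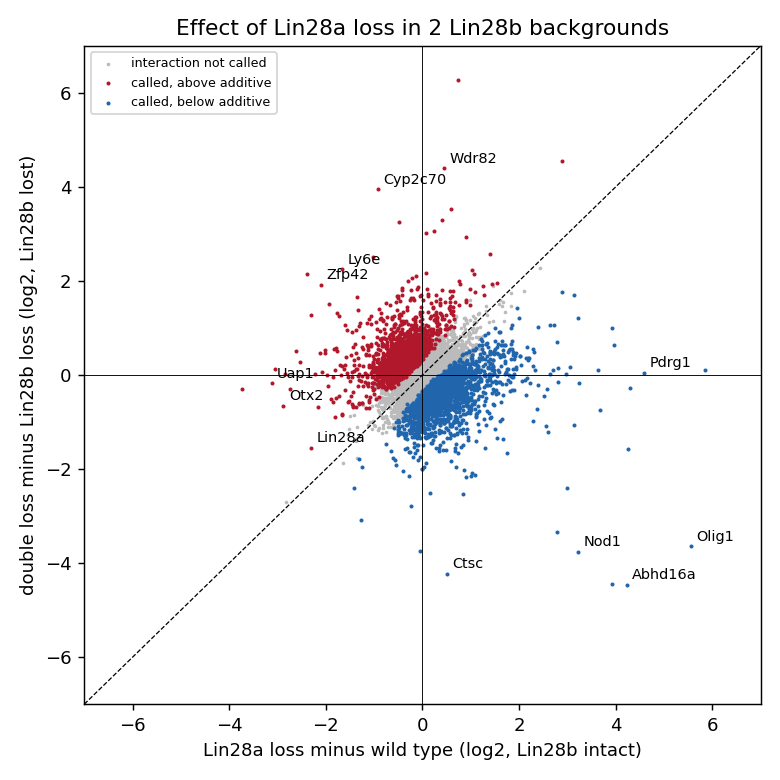
Effect of Lin28a loss with Lin28b intact (x axis, log2) against its effect with Lin28b lost (y axis, log2), 1 point per tested gene, means of 3 arrays a group. The dashed diagonal marks equal effects; the 1733 genes called above additive (red) lie above it and the 2015 called below (blue) under it, and Olig1, Abhd16a and Nod1 lie far in the lower right.

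The called genes were then described by their 4 group means. A group stood apart where its distance to the nearest other group was at least 2 times the span of the other 3, and the single losses stood together where the gap between the pairs was at least 2 times the larger span within a pair. These patterns are a description of the same means that the fit used and carry no test. Some pattern of the 10 held for 1368 called genes (36.5%), and the other 2380 were mixed. The most frequent was Lin28a loss alone high, with 320 genes, followed by Lin28a loss alone low with 228. Over all tested genes, called or not, these patterns held for 473 and 461. In 136 of the 320 at least 1 group had no array above background, against 7 of the 228. A gene that is dim elsewhere can pass the detection filter through its high group alone, which limits this comparison. Lin28b loss stood apart high in 153 and low in 96 genes, and double loss high in 144 and low in 147. The single losses stood together high in 95 genes and low in 89, with double loss near wild type. Wild type stood apart high in 46 and low in 50 genes, where the 3 loss groups lay close together beside their distance from wild type.

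**Figure D2:**
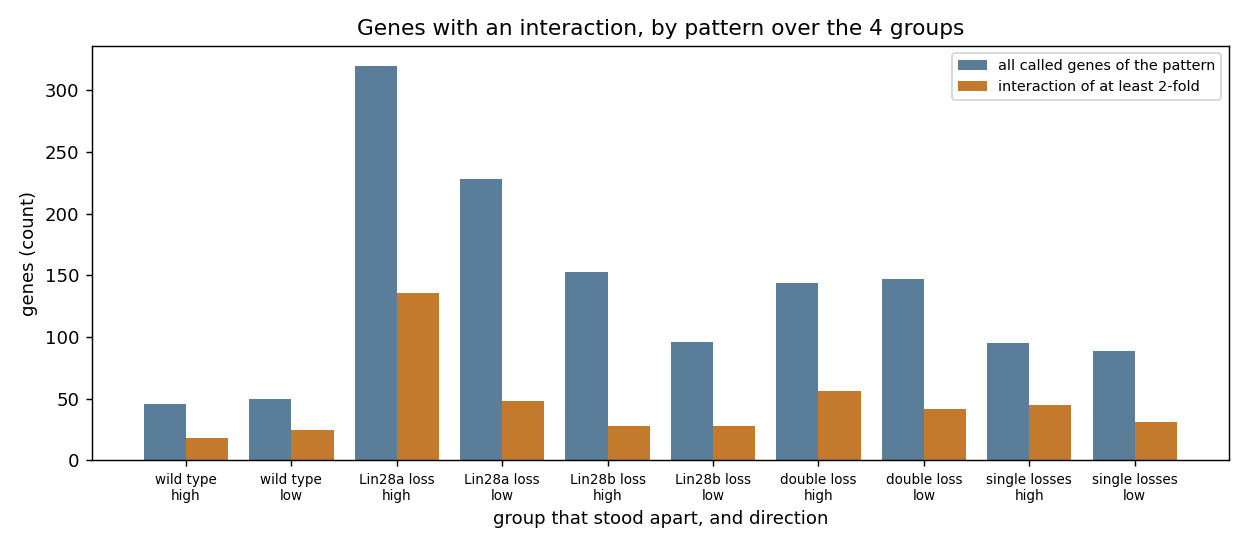
Number of genes with a called interaction (y axis) in each of the 10 patterns over the 4 groups (x axis). Blue bars count all called genes of the pattern and orange bars those with an interaction of at least 2-fold; Lin28a loss high is the tallest, with 320 and 136 genes.

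The largest interactions belonged to genes that were high in both single losses and low in wild type and double loss. Nod1, an intracellular sensor of bacterial peptidoglycan, read 5.24, 5.46 and 5.78 in wild type, 8.57, 8.66 and 8.92 in Lin28a loss, 9.65, 9.75 and 9.80 in Lin28b loss, and 5.96, 6.04 and 5.94 in double loss. Every single-loss array lay above every wild-type and double-loss array, and 1 of the 3 wild-type arrays was above background. Lin28a loss raised it by 3.22 with Lin28b intact and its level fell by 3.75 with Lin28b lost, an interaction of -6.98 ± 0.19 (log2, SE; adjusted p = 4e-11, limma). Abhd16a, a serine hydrolase of lipid metabolism, read 9.43 to 9.71 in Lin28a loss and 9.61 to 9.68 in Lin28b loss, and was not above background on any array of wild type or double loss. Over wild type it stood at least 15.2-fold higher in Lin28a loss and at least 15.7-fold higher in Lin28b loss. The bound, here and below, is the lowest signal above background on those arrays among genes inferred to have 1 probe. Wdr46, a nucleolar protein, was likewise at least 8.92-fold and 13.1-fold higher than in wild type, and Ubd, a ubiquitin-like modifier, at least 4.53-fold and 6.34-fold higher. Olig1, a transcription factor of the oligodendrocyte lineage, read 9.96, 10.37 and 10.62 in Lin28a loss and 8.50, 8.40 and 8.42 in Lin28b loss, with no array of wild type or double loss above background. Over wild type it stood at least 25.2-fold higher in Lin28a loss and at least 6.86-fold higher in Lin28b loss, and was classed as mixed because the single losses differed. The fitted interactions of these genes (Olig1 -9.19, Abhd16a -8.69, Wdr46 -8.36 and Ubd -6.12) depend on how background was treated. With every dim group set to that lowest signal of 1-probe genes they were -7.46, -7.93, -6.90 and -4.87.

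Genes low in both single losses were higher again in double loss, which the definition of that pattern requires. Zfp42 (Rex1), a zinc-finger marker of naive pluripotency, read 12.08, 12.42 and 12.40 in wild type, 10.15, 10.37 and 10.07 in Lin28a loss, 10.46, 10.64 and 10.68 in Lin28b loss, and 12.54, 12.54 and 12.48 in double loss. The double-loss arrays were all above the wild-type ones, and the single-loss arrays all lay more than 1 log2 unit below both. Its interaction of 4.03 ± 0.16 (adjusted p = 2.2e-09, limma) is 16.3-fold, and double loss and wild type differed by 0.22 (adjusted p = 0.15). Ly6e, a surface antigen anchored by glycosylphosphatidylinositol, followed the same order, with 10.58 to 11.29 in wild type, 9.08 to 9.23 and 8.95 to 9.21 in the single losses, and 11.24 to 11.48 in double loss. Its interaction was 3.91 ± 0.23. H2-Q6 and H2-Q5, class I histocompatibility genes, were not above background in Lin28a loss and were at least 3.81-fold and 1.93-fold higher in wild type. In double loss H2-Q5 read 5.96 to 6.21, below the 6.32 to 6.47 of wild type (adjusted p = 0.017, limma), and 1 of its double-loss arrays was above background. Class I genes are close in sequence, so a probe for one may read another. Nr5a2, a nuclear receptor that supports Pou5f1 expression, was classed as mixed: it fell to 6.53, 6.85 and 7.03 in Lin28a loss from 8.07, 8.21 and 8.19 in wild type, was 7.99, 7.81 and 7.99 in Lin28b loss, and reached 9.75, 9.53 and 9.47 in double loss. Its Lin28a effect turned from -1.36 to 1.65, an interaction of 3.01 ± 0.18 (adjusted p = 1.1e-07, limma).

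Where Lin28a loss stood apart, double loss lay near the groups that keep Lin28a, which the definition of the pattern requires. Uap1, the last enzyme of UDP-N-acetylglucosamine synthesis, read 9.94, 9.39 and 9.52 in wild type, 6.45, 6.43 and 6.61 in Lin28a loss, 9.73, 9.58 and 9.73 in Lin28b loss, and 9.92, 9.34 and 9.27 in double loss. Lin28a loss lay more than 2 log2 units under all other arrays, and the interaction was 2.95 ± 0.24 (adjusted p = 1.7e-06, limma). Acta2, smooth muscle actin, and Sub1, a transcriptional coactivator, followed with 2.54 ± 0.19 and 2.36 ± 0.16. Acta2 was also higher in double loss than in wild type, by 0.88 (adjusted p = 0.00026, limma). In the other direction Pdrg1, a subunit of a prefoldin-like chaperone complex, read 9.13, 9.17 and 8.93 in Lin28a loss and was not above background on any other array. It was at least 10.6-fold higher than in wild type and at least 10.9-fold higher than in double loss. Zfp365 and the homeobox gene Obox6 were also above background only on the 3 Lin28a-loss arrays, at least 5.93-fold and 8.85-fold above wild type.

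In other genes Lin28b loss stood apart. Farsa, the alpha subunit of phenylalanyl-tRNA synthetase, read 8.19, 8.40 and 8.17 in Lin28b loss and 6.35 to 6.81 in the other groups, an interaction of -1.73 ± 0.16 (adjusted p = 4.5e-06, limma). Sdc2, a heparan sulfate proteoglycan, read 6.70, 6.70 and 6.44 in Lin28b loss and 8.10 to 8.74 elsewhere, an interaction of 2.23 ± 0.13. In neither gene did the Lin28b-loss arrays overlap any other group. Trim56, an antiviral ubiquitin ligase, was at least 3.23-fold higher in Lin28b loss than in wild type, which was not above background, and Prps2, which makes phosphoribosyl pyrophosphate for nucleotides, was low (2.21 ± 0.25). Wdr82, a histone methyltransferase subunit, was not above background in Lin28b loss and at least 7.56-fold higher in wild type, but its other entry was above background in all groups and gave an interaction of 0.30, so the entries disagree.

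In double loss alone, Cyp2c70, a cytochrome P450 of bile acid metabolism in mouse liver, read 9.52, 9.53 and 9.47 against 4.75 to 6.02 on all other arrays, with an interaction at an adjusted p of 1.6e-09 (limma). It was at least 16.9-fold above Lin28a loss, where no array was above background. Osr2, a zinc-finger factor of limb and palate development, read 8.17 to 8.30 in double loss and 4.91 to 5.81 elsewhere. The neuropeptide Npy was above background on the double-loss arrays only, at least 2.15-fold over wild type. Ctsc, a lysosomal cysteine protease, was low there, with 4.88, 4.60 and 4.51 against 8.79 to 10.08 elsewhere and an interaction of -4.73 ± 0.17; 1 of its 3 double-loss arrays was above background. Picalm, a clathrin assembly protein, and Pak1, a kinase downstream of Rac, were not above background on any double-loss array, and were at least 9.51-fold and 3.34-fold higher in wild type. Ctsc, Picalm and Pak1 all lie on chromosome 7.

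Wild type stood apart least often. Meg3, the noncoding RNA of the imprinted Dlk1-Meg3 region, read 8.36, 8.94 and 8.92 in wild type, 5.68 to 6.06 in Lin28a loss, 5.89 to 6.17 in Lin28b loss and 5.51 to 6.32 in double loss. The 3 loss groups overlapped each other and lay at least 2 log2 units below every wild-type array. Its interaction was 2.88 ± 0.30 (adjusted p = 1.5e-05, limma), while its other entry was not above background anywhere. Slc40a1, the iron exporter ferroportin, was also highest in wild type (2.29 ± 0.25), but its double-loss arrays (6.46 to 6.80) lay above all arrays of the single losses (5.63 to 6.33), and 2 of its 3 Lin28b-loss arrays were above background. Camk2n1, an inhibitor of calcium/calmodulin-dependent kinase II, read 6.71 to 6.88 in wild type and 8.54 to 9.44 on all 9 loss arrays, an interaction of -2.39 ± 0.24.

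**Figure D3:**
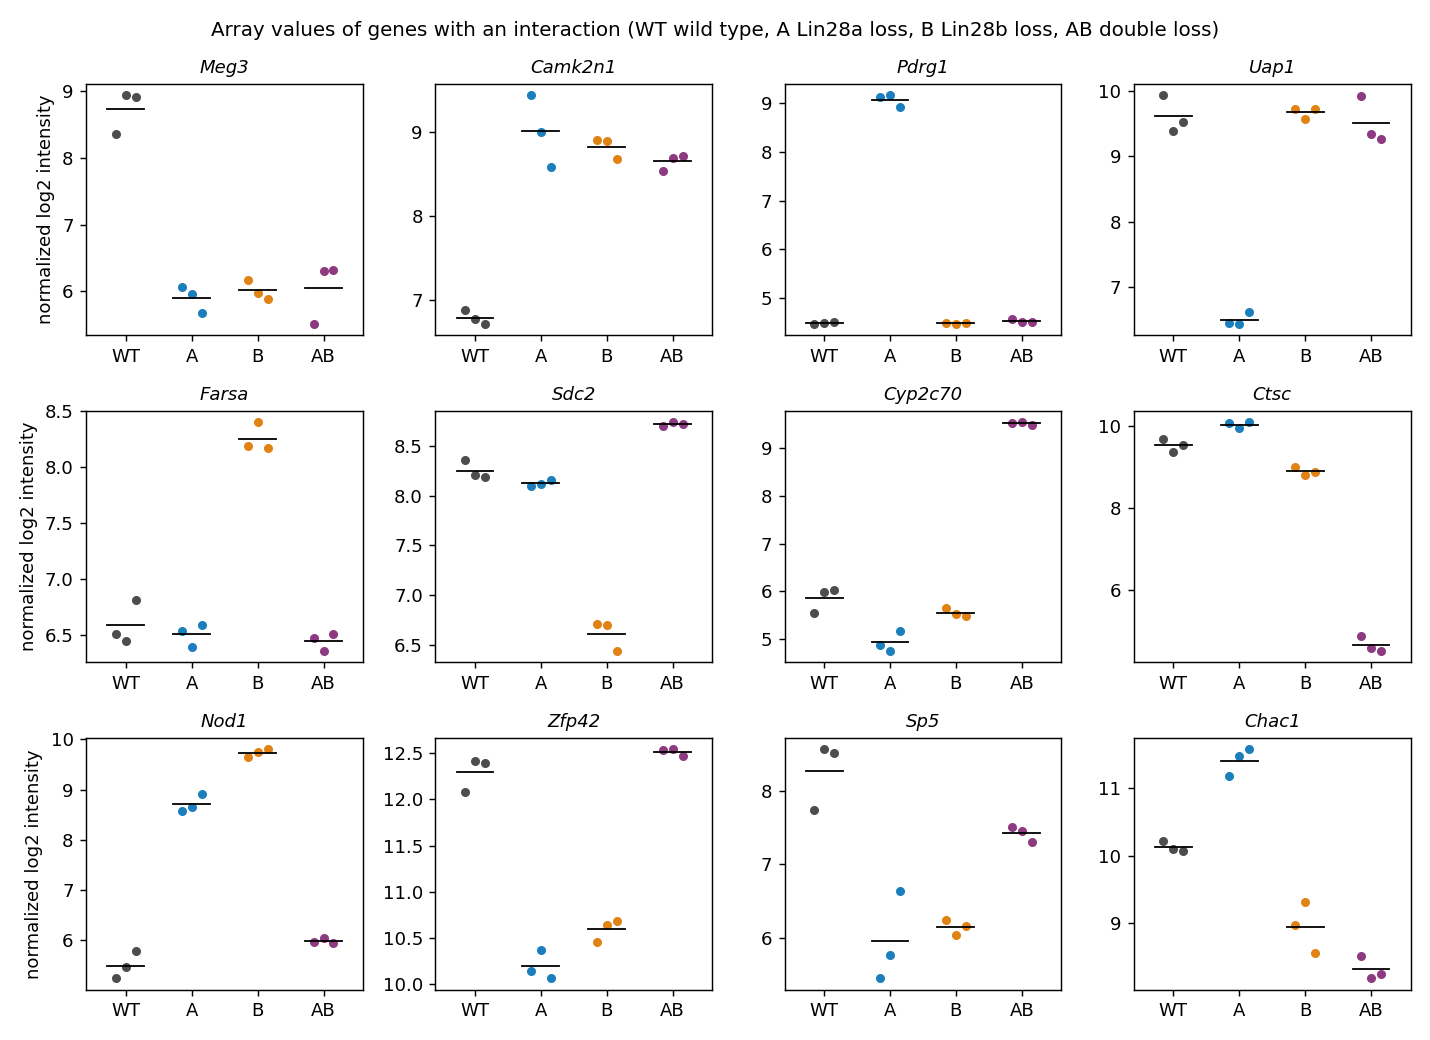
Normalized log2 intensity (y axis) of 12 genes on every array, by group (x axis: WT wild type, A Lin28a loss, B Lin28b loss, AB double loss). Points are the 3 arrays of a group and bars their means; in Zfp42 the single losses lie below wild type and double loss, and in Nod1 above them.

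Among 44 reported let-7 targets, 24 were tested, and 8 were called above and 2 below additive, with a median interaction of 0.19 against -0.00073 over all tested genes. The share called, 41.7%, was near the 37.8% of all genes. Cdc25a, a phosphatase that drives entry into S phase, read 9.19, 9.26 and 9.31 in wild type, 9.22, 9.07 and 9.01 in Lin28a loss, 8.50, 8.50 and 8.52 in Lin28b loss, and 9.61, 9.37 and 9.38 in double loss. Its Lin28b-loss arrays lay below all others, and the interaction was 1.11 ± 0.13 (adjusted p = 3.6e-05, limma). Plagl2, a zinc-finger oncogene, had its low in Lin28a loss (0.98 ± 0.15). Of 16 tested genes of let-7 and microRNA maturation, 4 were called above and 1 below additive (31.25%, against 37.8% of all genes). The uridylyltransferase gene Tut1 was above (0.81 ± 0.17, adjusted p = 0.0025, limma). Tnrc6c, a gene of the silencing complex, was below (-0.98 ± 0.21), and its other entry gave -0.11.

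Pluripotency genes were called in both directions. Of 22 tested naive genes, 4 were called above and 5 below additive, a share of 40.9%, with Zfp42 and Nr5a2 far above and Pecam1, an adhesion molecule, below (-1.21 ± 0.16). Jam2, a junction protein, was also below (-1.96 ± 0.26). Its other entry lay below additive as well (-3.32), but ordered the loss groups differently. Of 19 general pluripotency genes, 7 were above and 1, Cdh1, below (-0.99 ± 0.13), a share of 42.1%. Of 13 primed genes, 5 were above and 1 below, a share of 46.2%, with a median of 0.35. Over all tested genes 37.8% were called, 17.5% above additive and 20.3% below. Otx2, the factor that opens the passage to the primed state, read 8.77, 8.48 and 8.49 in wild type, 5.72, 5.56 and 5.83 in Lin28a loss, 11.24, 11.29 and 11.21 in Lin28b loss, and 10.86, 10.38 and 10.55 in double loss. None of its groups overlapped. The Lin28a effect on Otx2 shrank from -2.88 with Lin28b intact to -0.65 with it lost, and the interaction was 2.23 ± 0.18 (adjusted p = 1.6e-06, limma). Nodal and BMP pathway genes were called in 10 of 20, with 5 in each direction (50% against 37.8% of all genes), and 2 of those below additive lie on chromosome 8. Bmp4, a ligand that acts with Lif on naive cells, had a Lin28a effect of -2.15 with Lin28b intact and -0.67 with it lost (interaction 1.48 ± 0.14, with 1 of 3 Lin28a-loss arrays above background). Gdf1, a ligand related to Nodal, went the other way (-2.85 ± 0.20), and Smad3, a transducer of Nodal signals, was low in double loss (-1.32 ± 0.13).

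Canonical Wnt targets had the highest share of calls among the lists with 10 or more tested members: 10 of 12 (83.3%), 7 above and 3 below additive, with a median of 0.72. Among genes above background on every array, 4 Wnt targets were called above additive, where 1354 of all 7673 such genes were. The number of Wnt targets tested under that filter is not given here. Nkd2 was among the targets called below additive in the main fit (-0.68, adjusted p = 0.011, limma). Axin2, the feedback inhibitor most used as a Wnt readout, read 9.48, 9.50 and 9.53 in wild type, 7.77, 7.76 and 8.20 in Lin28a loss, 8.26, 8.30 and 8.54 in Lin28b loss, and 9.71, 9.29 and 9.28 in double loss. Double loss overlapped wild type, and both single losses lay below them (2.65 ± 0.20; adjusted p = 1e-06, limma). Sp5, a transcription factor induced by Wnt, read 7.74, 8.56 and 8.51 in wild type, 5.46, 5.77 and 6.64 in Lin28a loss, 6.25, 6.05 and 6.16 in Lin28b loss, and 7.51, 7.45 and 7.31 in double loss (3.58 ± 0.37). The mesoderm factor T (Brachyury) was above background in wild type only, at least 1.85-fold over Lin28a loss. T and Bmp4 stand in several lists.

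Genes of the integrated stress response, in which phosphorylation of eIF2 raises the translation of the transcription factor Atf4, were called below additive more often than above. Of 32 tested, 12 were called below, 4 above and 16 not, with a median of -0.25. Over all tested genes 20.3% were called below and 17.5% above. Of the 32, 4 lie on chromosome 8, described below, and without them 9 of 28 were below and 4 above, with a median of -0.10. Of all 9431 genes not on chromosome 8, 1725 were below and 1725 above. Chac1, which degrades glutathione, read 10.22, 10.10 and 10.07 in wild type, 11.18, 11.47 and 11.58 in Lin28a loss, 8.97, 9.31 and 8.55 in Lin28b loss, and 8.51, 8.17 and 8.24 in double loss. Lin28a loss raised it by 1.28 with Lin28b intact, its level fell by 0.64 with Lin28b lost, and the interaction was -1.92 ± 0.24 (adjusted p = 6e-05, limma). Ddit4, an inhibitor of mTORC1, stood apart low in double loss, with 8.86 to 9.22 against 10.59 to 11.61 elsewhere (-2.66 ± 0.25). Gpt2, a mitochondrial alanine aminotransferase, and the cytokine Gdf15, both on chromosome 8, had interactions of -1.82 ± 0.13 and -1.62 ± 0.17. Further members, picked after their values were seen, were Nupr1 (-1.38 ± 0.23), the hormone Fgf21 (above background in Lin28a loss only) and Atf4 itself, which ran the other way (0.80 ± 0.13).

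The upstream sequences of this list are shown because a known response element could be searched in them. The composite site of C/EBP and ATF factors was searched as TGATGNAAN on both strands of the 250 bases before each RefSeq start (GRCm38.p6). It was found in 8 of 29 tested members with a promoter in the table, and in 3.89% of 27025 genes. Of the 8, Chac1, Fgf21, Nupr1 and Herpud1 had a called interaction, all below additive, Herpud1 lying on chromosome 8, and Aars, Asns, Atf3 and Gars did not. Over the whole list 50% were called, against 37.8% of all genes, with 12 of 32 below additive and 4 above. The share of calls therefore does not set the 8 apart. Ddit4 (-2.66) and Ddit3 (-1.68), without a match, were also called below. A match is a description, and the list itself was drawn up from genes known for this response. Of the Wnt targets, 1 of 7 with a promoter, Sp5, held CTTTGAT, a site of TCF and LEF factors that was found in 3.72% of all genes. Of the cholesterol genes, 0 of 12 held TCACNCCAC, a sterol regulatory element found in 1.22%. The matches are in capitals, read 5′ to 3′ in the direction of the gene.
Chac1, chr2:119350992-119351241, plus strand: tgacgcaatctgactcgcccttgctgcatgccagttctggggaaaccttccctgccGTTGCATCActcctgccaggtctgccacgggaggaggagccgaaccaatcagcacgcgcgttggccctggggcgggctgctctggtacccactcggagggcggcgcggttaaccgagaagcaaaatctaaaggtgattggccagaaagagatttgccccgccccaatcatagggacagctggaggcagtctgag
Fgf21, chr7:45615491-45615740, minus strand: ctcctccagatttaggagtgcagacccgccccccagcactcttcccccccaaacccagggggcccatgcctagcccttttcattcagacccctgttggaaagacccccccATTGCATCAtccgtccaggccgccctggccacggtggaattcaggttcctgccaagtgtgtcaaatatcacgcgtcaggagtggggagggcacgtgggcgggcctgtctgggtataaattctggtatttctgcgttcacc
Nupr1, chr7:126625471-126625720, minus strand: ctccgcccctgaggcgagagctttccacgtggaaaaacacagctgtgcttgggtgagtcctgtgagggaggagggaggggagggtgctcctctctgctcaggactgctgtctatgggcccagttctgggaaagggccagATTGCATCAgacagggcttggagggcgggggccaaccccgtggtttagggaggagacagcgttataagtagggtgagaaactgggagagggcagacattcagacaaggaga
Sp5, chr2:70474673-70474922, plus strand: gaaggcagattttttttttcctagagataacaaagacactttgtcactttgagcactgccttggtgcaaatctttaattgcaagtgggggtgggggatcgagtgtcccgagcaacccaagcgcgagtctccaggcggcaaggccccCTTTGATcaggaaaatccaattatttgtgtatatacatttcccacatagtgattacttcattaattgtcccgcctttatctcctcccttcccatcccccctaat

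Cholesterol synthesis genes were called below additive in 8 of 18 and above in 2, with a median of -0.46 (over all genes 20.3% were below and 17.5% above). Without the 2 on chromosome 8 the median was -0.39, with 7 of 16 below. Cyp51, the lanosterol demethylase, was high in both single losses (-0.99 ± 0.15), with 9.11 to 9.35 and 9.14 to 9.21 against 8.54 to 8.86 in wild type and 8.67 to 8.81 in double loss. Ebp, a sterol isomerase, was highest in Lin28a loss and lowest in double loss (-1.06 ± 0.12; adjusted p = 3.2e-05, limma). The count below additive was 5 when any of the following arrays was left out alone: Lin28b loss replicates 1 and 3, Lin28a loss replicates 1 and 2, and wild type replicate 3. Serine, glycine and one-carbon genes were balanced, with 4 of 19 above and 4 below (42.1% called, against 37.8% of all genes). Ahcy, which clears S-adenosylhomocysteine, stood apart high in Lin28a loss (-1.87 ± 0.17), while Mat2a, which makes S-adenosylmethionine, was lowest there (1.46 ± 0.21).

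Genes of interferon response and antigen processing were called in 14 of 22 (63.6% against 37.8% of all genes), 6 above and 8 below. H2-Bl and Psmb9, an immunoproteasome subunit, were at least 10.3-fold and 2.67-fold higher in Lin28a loss than in wild type, and Psmb9 was above background in no other group. Both lie on chromosome 17, as do Ubd, H2-Q6 and H2-Q5. Of 23 p53 targets, 7 were called above and 2 below, a share of 39.1%. Gadd45a, a stress-induced growth inhibitor, was low in Lin28b loss (2.05 ± 0.17), and the exonuclease gene Aen was highest in double loss (2.26 ± 0.12, with 1 of 3 Lin28a-loss arrays above background). Cell cycle genes had 6 calls of 28, all above additive, a share (21.4%) under that of all genes. Imprinted genes had 3 above and 5 below of 16 (50%), among them Phlda2, a growth-restraining placental gene that was low in double loss (-1.51 ± 0.23), and Ndn (-0.98 ± 0.17).

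In the remaining lists the share called lay below the 37.8% of all genes, except among the 4 2-cell-stage genes. Oxidative phosphorylation had 4 of 61 (6.6%) and cytosolic ribosomal proteins 4 of 53 (7.5%). Rpl29, the 1 of these called above additive, was at 11.24 to 11.30 in Lin28b loss and 12.55 to 13.25 elsewhere (1.22 ± 0.13; adjusted p = 1.4e-05, limma). Polycomb and DNA methylation genes had 4 of 21 and endoplasmic reticulum chaperones 4 of 13, with the transcription factor gene Xbp1 above additive (0.73 ± 0.18). FGF-ERK genes had 3 calls in each direction of 16, and glycolysis genes 2 above and 3 below of 16, with Eno2 low in double loss (-1.68 ± 0.21) and Eno1 low in Lin28a loss (0.94 ± 0.14). Germline genes had 2 above and 3 below of 14, and 2-cell-stage genes 2 above and 1 below of 4.

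**Figure D4:**
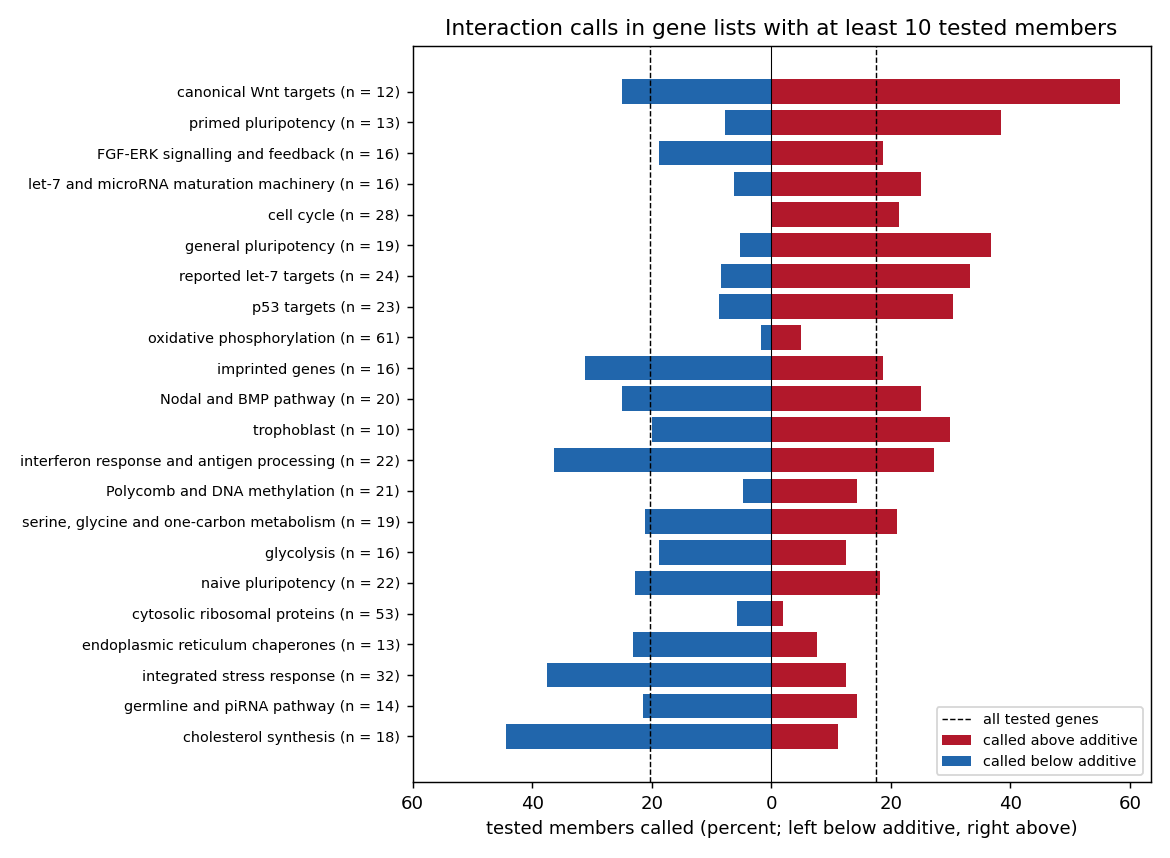
Share of tested members called below additive (left, blue) and above additive (right, red), in percent, for each list with at least 10 tested members. Dashed lines mark all tested genes (20.3% below, 17.5% above); canonical Wnt targets reach furthest right, and cholesterol synthesis furthest left.

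Markers of other cell types were mostly below background. Of 18 neuroectoderm markers 3 were tested, all called below additive (Olig1, Otx1 and Nes), and Sox1, Pax6 and 13 others were not above background on all 3 arrays of any group. The summed linear level of the 3 was 158.2 to 174.6 in wild type, 1147 to 1716 in Lin28a loss, 564.4 to 628.0 in Lin28b loss and 151.6 to 164.3 in double loss. Olig1 alone, at 9.96 to 10.62 on the log2 scale in Lin28a loss, made up most of the sum in that group. Mesoderm markers had 3 calls in each direction of 7 tested among 19 listed, with Mesp1 and Mixl1 untested, and their sums were 1540 to 1584, 1274 to 1636, 935.3 to 978.5 and 752.5 to 793.8 in the same order of groups. Of 20 trophoblast markers 10 were tested (3 above, 2 below), with Cdx2 and Elf5 untested, and their sums were 3237 to 3532, 2115 to 2424, 2749 to 2920 and 1548 to 1646. Of 22 endoderm markers 8 were tested (0 above, 3 below), with Gata4, Gata6 and Sox17 untested and sums of 9309 to 10434, 9819 to 11589, 9532 to 9786 and 8093 to 9283. Fibroblast markers had 1 call above and 2 below of 5 tested among 19, with Col1a1 and Col1a2 untested and sums of 1432 to 1773, 1171 to 1404, 1835 to 1974 and 1485 to 1713. The 1 tested blood marker, Hbb-b1, was not called. In cell populations, fewer cells of a type and less RNA per cell cannot be told apart, and the part of such cells in the interactions was not tested.

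The interaction was not spread evenly over the genome. On chromosome 8, 290 of 489 tested genes (59.3%) were called below additive and 8 above, with a median of -0.59, against 0.03 over the other placed genes. The median effect of Lin28a loss there was 0.24 with Lin28b intact and -0.34 with it lost, and Lin28b loss and double loss stood at 0.25 and -0.12 against wild type. Divided into 10 runs of about 50 neighbouring tested genes, all of chromosome 8 was shifted, with run medians of -0.88 to -0.34, while 158 runs elsewhere lay between -0.27 and 0.35. Zfp42 was 1 of the 8 genes there called above additive. Farsa, Cdh1, Gdf1, Gpt2, Gdf15 and Herpud1, named above as below additive, also lie there. Without chromosome 8, 3421 of 9431 genes were called in a refit, 50.0% of them above additive. The 4-fold interactions were also uneven. Chromosome 17 held the most, 18 of 462 tested genes, against 153 of 9920 (1.54%) over all tested genes. Its neighbouring runs from Myo1f to Clic1 and from Ddah2 to Ubd held 6 each, and the chromosome 7 run from Man2a2 to Omp held 5.

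**Figure D5:**
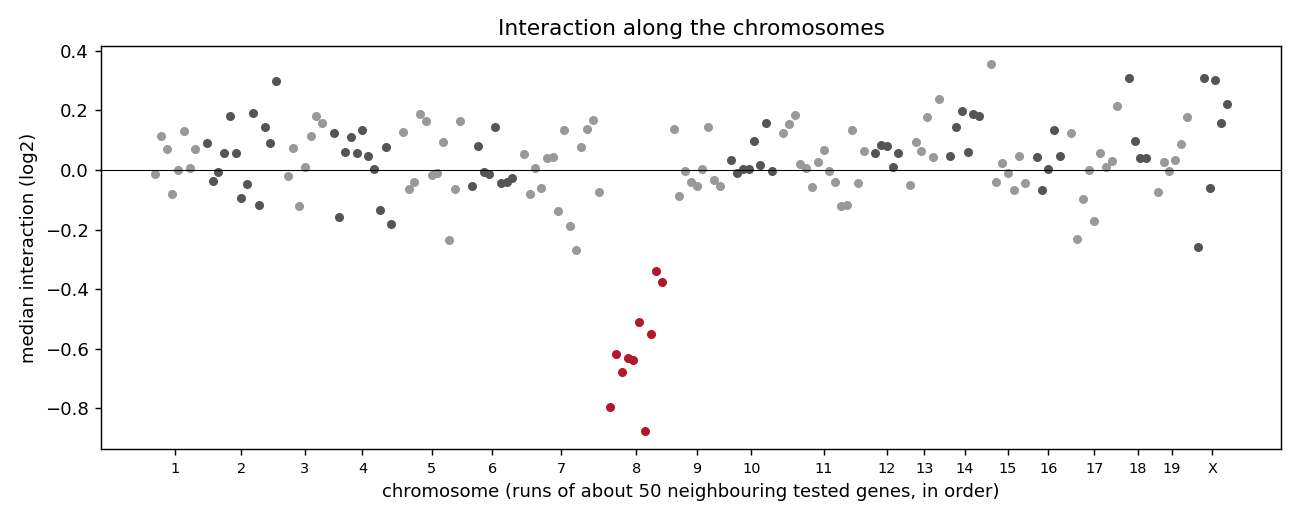
Median interaction (y axis, log2) of runs of about 50 neighbouring tested genes, in order along each chromosome (x axis). The 10 runs of chromosome 8 (red) lie between -0.88 and -0.34, below all 158 runs of the other chromosomes (grey).

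The Y-linked gene Eif2s3y, a translation initiation factor subunit, was not above background on any array of wild type or Lin28a loss, but read 6.83 to 7.33 in Lin28b loss and 5.92 to 6.27 in double loss, at least 2.82-fold and 1.36-fold over wild type. It was the 1 tested member of a list of 6 Y-linked genes and Xist, and its interaction was called below additive (adjusted p = 0.0020, limma). The 2 groups with signal are the 2 on the second chip, so chip, line and Lin28b loss cannot be told apart for this gene.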

How the data were processed

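Total RNA of the 12 samples was hybridised to Illumina Mouse WG-6 BeadChips, 1 array each. Per the file headers, the authors exported the deposited gene table from GenomeStudio (GSGX 1.9.0) without normalization: each signal is a mean bead intensity on a linear scale, and each detection p-value sets it against negative control beads. The genome build and probe sequences are not given in the sources used here. A bright gene with several probes can have a high detection p. The authors' deposited probe table also holds linear intensity values, 19.6% of them below 0, with no gene names used here, and served as an alternative. In all, 60 other columns were not used.

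Here, 936 negative bead types were inferred from the steps of the detection p-values. Background was corrected with normexp, 16 was added, values were put on the log2 scale from the deposited intensity values, and arrays were quantile normalized. One model over the 12 arrays was fitted with limma 3.58.1 in R 4.3.3 (lmFit, eBayes), with Benjamini-Hochberg adjustment over 9920 genes and a threshold of 0.05. The fit was tested on simulated data with independent noise for each gene and array. That setting does not cover deviations shared across genes, such as those of the brightest arrays. Errors of interactions are limma standard errors, and the 3 arrays a group limit the precision. Symbols were updated through RefSeq tables (18045 genes matched by gene ID, 2663 through a synonym and 2073 by symbol), and the other 8073 were left as in the file. Alternatives were median scaling, cyclic loess, no background correction, an offset of 50, other detection filters, array weights, a replicate block, left-out arrays and leaving out chromosome 8.

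Genes were named by a rule: Lin28a and Lin28b, the 4 with the largest interaction of each pattern, the 4 with the smallest p of each list, and the 6 largest in all. The text describes only some of these, chosen with their values known. Other list members named were chosen after their values were seen, and the members and lists were chosen with earlier results of these data known. Replicate numbers were not taken to pair the samples, but pairing was not excluded. Of 18 same-numbered pairs of arrays in different groups, 9 had deviations that correlated above 0.1, in a range of -0.57 to 0.69. Differently numbered pairs were not compared, apart from those of the brightest arrays.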

Additional observations from a re-analysis of the deposited data

Results flagged for a closer look

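In 796 genes the effect of Lin28a loss was called in both Lin28b backgrounds with opposite directions. The interaction was called in every one of them, which largely follows from its being the difference of these effects. The count of 796 genes was 302 under median scaling, 1665 with array weights and 1426 without the brightest array of wild type, Lin28a loss and double loss. The genes called in the same direction numbered 859, and 409, 1639 and 1303 in the same order of alternatives. With 1 line per genotype, line and genotype cannot be told apart here.

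In 5 genes the Lin28a effect was strongly positive with Lin28b intact and strongly negative with it lost. Their interactions were -9.19 for Olig1, -8.69 for Abhd16a, -8.36 for Wdr46, -6.98 for Nod1 and -6.12 for Ubd. All but Nod1 were not above background on any array of wild type or double loss, so those sizes depend on the treatment of background. Abhd16a, Wdr46 and Ubd lie on chromosome 17.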

How the results depend on the processing

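The count of called interactions (3748) was 3137 to 4165 when each array was left out in turn, and Lin28b loss replicate 1 gave the lowest value and Lin28a loss replicate 3 the highest. It was 2214 under median scaling, 3751 under cyclic loess, 5198 without the brightest array of wild type, Lin28a loss and double loss, 5613 with array weights, 4286 of 28852 with no filter on dim genes, and 2718 of 7673 with genes above background on all 12 arrays. The authors' probe-level table, an alternative chosen after seeing the data, gave 5649 called of 14913 probes (37.9%). Under median scaling the Lin28a effect was called in 1988 genes with Lin28b intact and 2286 with it lost, and 847 genes had a pattern. With array weights the Lin28a effect with Lin28b lost was called in 5744 genes, and list members were called 255 times against 168. Over left-out arrays these counts were 2897 to 3848 (Lin28b intact), 2739 to 3990 (Lin28b lost), 147 to 191 (lists) and 1178 to 1504 (patterns), and the chromosome 8 median was -0.62 to -0.58. A gap ratio of 3 left 807 genes with a pattern, and a ratio of 1.5 gave 1927. The chromosome 8 median was -0.17 with no filter, where genes not above background enter it. For the other changes the cause was not tested.

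The replicate block gave 3863 calls, of which 3649 were shared, and the numbers were not taken to pair the samples. Of 132 named genes with a call, 110 kept it in every alternative in which they were fitted, which was 87 of 136 named genes with the filter on all 12 arrays and 123 without chromosome 8; the probe table was not matched to genes. Over 2930 comparisons of a named gene with an alternative, 75 lost the call, 6 gained it and 0 reversed. At least 2-fold interactions numbered 715 without background correction and 1129 with it. Wdr82 gave 0.30 where its other entry was used. Dim groups limit the sizes given as bounds.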
